A study of Homo sapiens with 9 samples.

Results

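Keratins are the intermediate filament proteins of epithelial cells. The 5 genes followed here, KRT8, KRT18, KRT19, KRT23 and KRT80, were chosen by gene identifier from the expression table, and each had its own row among the 15354 rows. The RNA came from HCT116, an established human colorectal carcinoma line, after reverse transfection of siRNA, in 3 groups of 3 libraries. The labels give a concentration of 25 nM, and the study's general methods give a higher one. The control group received the AllStars negative control siRNA, which targets no gene, and the other groups received siRNA A or siRNA B, both directed at the long non-coding RNA SNHG5. No group carried any other treatment or genetic change according to the labels, and HCT116 is a single line, so no other colon cell was compared. The study's methods describe the 3 libraries of a group as biological replicates.

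Keratin filaments are built from obligate pairs, in which a type II keratin joins a type I keratin, and the excess of an unpaired partner is usually degraded. KRT8 (type II) and KRT18 (type I) form the basic pair of simple epithelia such as the lining of the gut, and KRT19 is a further type I partner of KRT8. KRT80 is a type II keratin found near cell junctions in several epithelia, and KRT23 is a type I keratin that occurs in some gut and pancreatic tumours. The filaments are anchored to desmosomes by linker proteins and are remodelled through adaptor proteins of the 14-3-3 family.

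In the libraries labelled siRNA A, 4 of the 5 keratins rose (KRT8, KRT18, KRT19 and KRT80), by 1.78-fold to 2.13-fold, and KRT23 did not pass the test. In the libraries labelled siRNA B, KRT8 and KRT80 rose, KRT23 fell, and KRT18 and KRT19 did not pass the test. KRT8 therefore passed with both siRNAs while its main type I partner passed with siRNA A and not with siRNA B, and the difference between the siRNAs was itself past the threshold for KRT18 and for KRT8. These calls use an adjusted p of 0.05 from limma fitted over the 13893 genes that reached 1 CPM (reads of a gene scaled to a common library total) in at least 3 libraries, and all 5 keratins were among those genes. Of all those genes, 23.9% were higher and 27.6% lower with siRNA A, and 15.6% were higher and 18.3% lower with siRNA B. Cell number and RNA per cell cannot be told apart in bulk RNA, so a higher keratin level may stand for more RNA per cell or for more cells that express it.

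The libraries held 15566530 to 23277549 reads, so that 1 CPM stood for 15.6 to 23.3 reads. SNHG5, the RNA that both siRNAs target, was not lower in the libraries labelled with them. Control libraries held 26.3 to 35.6 CPM of it, siRNA A libraries 50.0 to 63.9 CPM and siRNA B libraries 45.2 to 47.8 CPM. It was higher by 1.29 (log2, adjusted p = 1.86e-05) with siRNA A and by 0.83 (adjusted p = 5.90e-04) with siRNA B. The study reported knockdown of SNHG5 by qRT-PCR with its SNHG5 siRNAs, the reverse of this table, and those measurements were not used here. Which of its siRNAs is labelled A and which B was not given in the sources used here. Since the targeted RNA goes against the labels in this table, every direction below is that of libraries as labelled. Colon epithelial markers were present: 10 of 12 listed genes had a row, none at 0. Their summed level was 568 to 588 CPM in control, 465 to 471 CPM with siRNA A and 475 to 553 CPM with siRNA B. These sums are of deposited CPM, without the scaling for RNA makeup used in the tests. That scaling lowers control values and raises siRNA A values, so the sums show presence and no direction of change.

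The sequences of the 5 genes bear on how well their reads can be placed. KRT8 (ENSG00000170421) lies on the minus strand at chr12:53290971-53343738 and KRT18 (ENSG00000111057) on the plus strand at chr12:53342655-53346690 (GRCh37, GENCODE annotation). The annotated KRT8 and KRT18 genes thus overlap by 1084 bases on opposite strands, and KRT18 also overlaps the annotated gene AC107016.2. KRT80 (ENSG00000167767) lies near them at chr12:52562780-52585798 on the minus strand, wholly within the plus-strand non-coding gene LINC00592. KRT19 (ENSG00000171345) at chr17:39679869-39684560 and KRT23 (ENSG00000108244) at chr17:39078952-39093898 lie in the type I cluster, both on the minus strand. KRT19 overlaps no other gene, and KRT23 lies within the plus-strand non-coding gene ENSG00000234477. Whether the authors counted by strand was not given in the sources used here, so reads in these overlaps may have been split, lost or shared.

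KRT8 and KRT18 have left many processed copies in the human genome. The annotation lists 51 KRT8, 68 KRT18 and 5 KRT19 pseudogenes, and 0 of these 124 had a row in the table. Every run of 50 bases (the read length) of each canonical transcript was searched for exact copies elsewhere in GRCh37. Of the 1735 windows of KRT8, 817 (47.1%) occurred elsewhere, at 36 loci of which 34 were annotated KRT pseudogenes. KRT18 was close behind, with 534 of 1364 windows (39.1%) at 47 loci, 46 of them such pseudogenes. The other transcripts were nearly free of copies, with 24 of 1341 windows (1.79%) in KRT19, 16 of 3824 (0.418%) in KRT80 and 0 of 2160 in KRT23. The 3 windows below, from the coding sequences (GENCODE transcripts on GRCh37), show the contrast between a read that cannot be placed and one that can. The shared KRT8 window spans coding bases 506 to 555 and has 7 exact copies, the shared KRT18 window spans bases 937 to 986 and has 10, and the unique KRT18 window spans bases 35 to 84.
KRT8 shared: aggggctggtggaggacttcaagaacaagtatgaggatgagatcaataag
KRT18 shared: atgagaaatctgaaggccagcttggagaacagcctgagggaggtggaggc
KRT18 unique: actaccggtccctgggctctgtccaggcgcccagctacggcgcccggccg

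**Figure D1:**
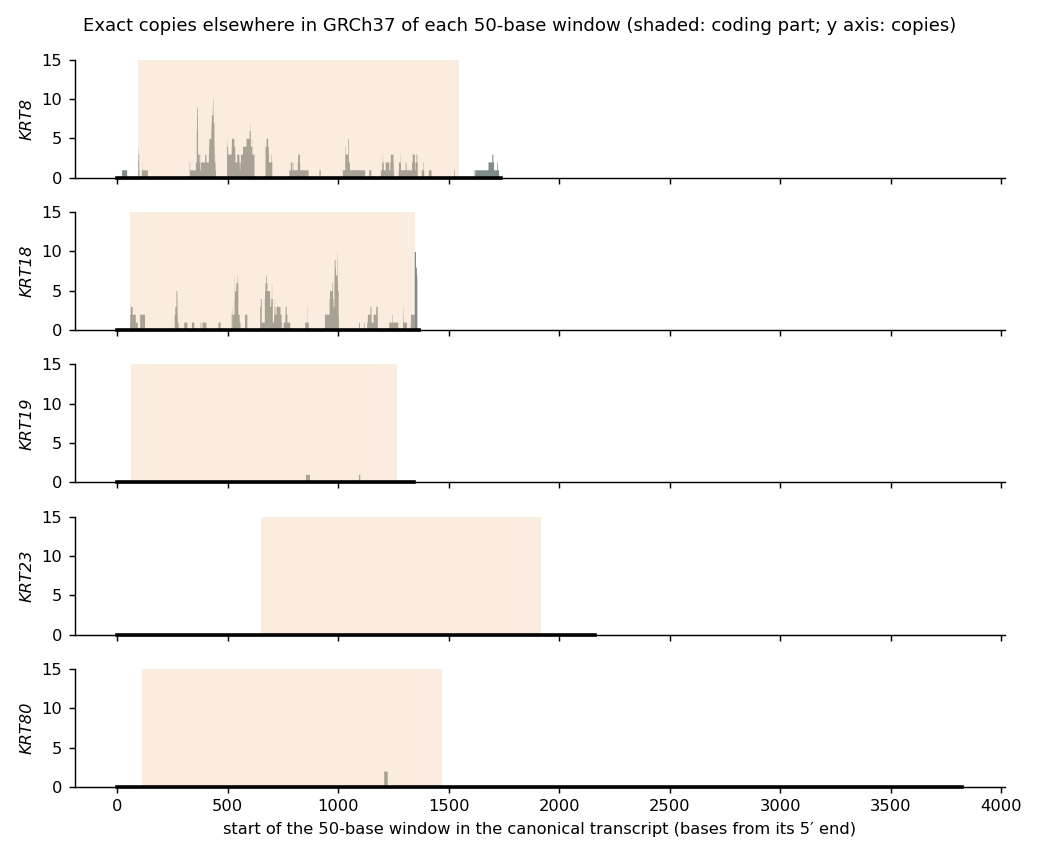
Number of exact copies elsewhere in GRCh37 (y axis) of the 50-base window that starts at each position of the canonical transcript (x axis, bases from the 5′ end), for the 5 keratins, with the coding part shaded. Copies lie throughout KRT8 (47.1% of windows) and KRT18 (39.1%), in 2 short stretches of KRT19 and 1 of KRT80, and KRT23 has none.

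Between the 5 keratins themselves, the coding sequences were 58.2% to 65.3% identical over the aligned bases, lowest for KRT18 and KRT80 and highest for the type I pair KRT18 and KRT19.

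KRT8, the main type II partner in simple epithelia, was the most abundant of the 5 by CPM. It measured 916, 902 and 884 CPM in control replicates 1, 2 and 3. The libraries labelled siRNA A held 1503, 1601 and 1279 CPM, and those labelled siRNA B held 1199, 1135 and 1180.0 CPM. The 3 groups did not overlap, with control lowest and siRNA A highest. After scaling by TMM (trimmed mean of M values, which corrects for differences in RNA makeup between libraries), the mean level was 788 ± 26.9 CPM in control (SD, n = 3), 1654 ± 243 with siRNA A and 1186 ± 24.5 with siRNA B. KRT8 was 2.08-fold higher with siRNA A than in control, a log2 fold change of 1.06 (SE 0.12, adjusted p = 4.27e-05). With siRNA B it was 1.51-fold higher (log2 0.59, adjusted p = 0.00329). Between the siRNAs it differed by 0.47 on the log2 scale (adjusted p = 0.0109). By log2 fold change with siRNA A, KRT8 ranked 359 from the top of the 13893 genes tested.

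KRT18, the type I partner of KRT8, separated the siRNAs most clearly in relation to its spread. It measured 445, 418 and 395 CPM in control libraries and 683, 675 and 613 CPM in those labelled siRNA A. The libraries labelled siRNA B held 460.2, 410.0 and 437 CPM, within or just above the control range. On the TMM scale the means were 367 ± 21.5, 743 ± 65.1 and 441 ± 7.44 CPM (SD, n = 3) in control, siRNA A and siRNA B, and here the siRNA B libraries lay just above the controls without overlap. KRT18 rose 2.02-fold with siRNA A (log2 1.01, SE 0.10, adjusted p = 1.77e-05). With siRNA B the log2 difference was 0.27 with a 95% interval of 0.05 to 0.49, and the adjusted p of 0.0598 missed the threshold. DESeq2 on the recovered reads called it (log2 0.28, adjusted p = 0.0193), as did the fit without siRNA A replicate 3 (log2 0.27, adjusted p = 0.0496), whereas scaling by library totals alone left a log2 difference of 0.06 (adjusted p = 0.714). KRT18 was higher with siRNA A than with siRNA B by 0.75 (log2, adjusted p = 2.38e-04).

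KRT19, the smallest type I keratin and a common marker of ductal and intestinal epithelium, followed KRT18. Control libraries held 531, 521 and 514 CPM, a narrow range. The libraries labelled siRNA A held 876, 1004 and 728 CPM, and those labelled siRNA B held 544, 625 and 580.4 CPM. Every siRNA library lay above every control library, and siRNA A replicate 2 stood highest for KRT19 as it did for KRT8. The TMM-scaled means were 456 ± 17.1, 986 ± 192 and 592 ± 66.7 CPM (SD, n = 3). KRT19 rose 2.13-fold with siRNA A (log2 1.09, SE 0.14, adjusted p = 9.68e-05). With siRNA B the log2 difference was 0.37 (95% interval 0.06 to 0.68, adjusted p = 0.0649) and did not pass. That call passed in the fit to the 2 groups alone (log2 0.37, adjusted p = 0.0332), in DESeq2 (log2 0.39, adjusted p = 0.0374) and without siRNA A replicate 2 or 3 (log2 0.37 in both, adjusted p = 0.0322 and 0.0376), while library totals alone gave 0.16 (adjusted p = 0.351). The siRNAs differed by 0.72 (log2, adjusted p = 0.00246), with siRNA A higher.

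**Figure D2:**
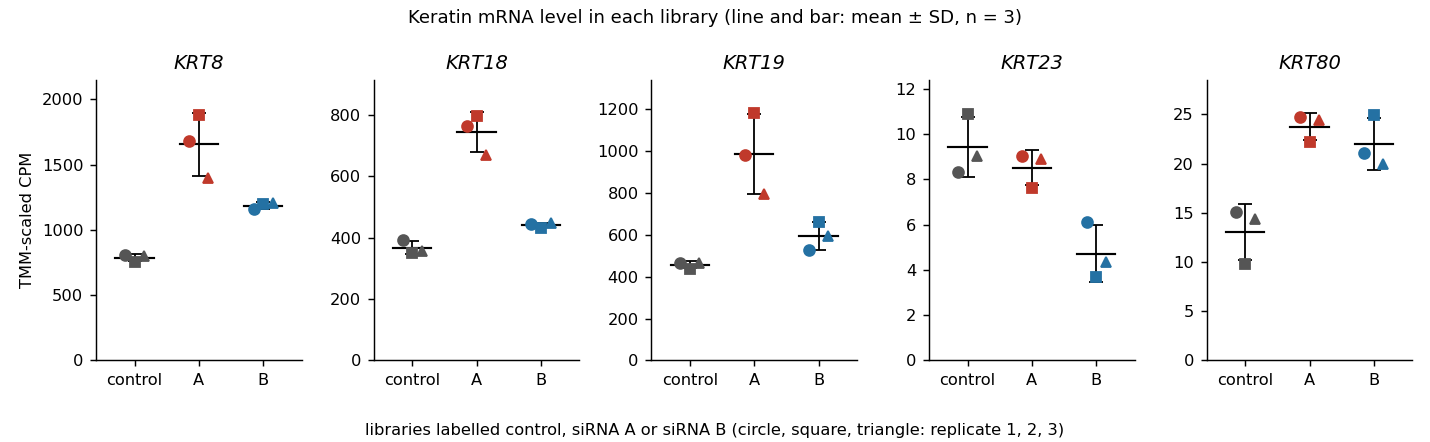
TMM-scaled CPM (y axis, linear from 0) of each keratin in the 9 libraries, grouped by label (x axis), with each point a library, the line the mean and the bar the SD of 3. KRT8, KRT18 and KRT19 were highest in the libraries labelled siRNA A with no overlap, KRT80 was higher in both siRNA groups than in control, and KRT23 was lowest in the libraries labelled siRNA B.

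KRT80, the second type II keratin of the set, was measured at far lower counts, from 226 to 471 reads per library. Control libraries held 17.1, 11.7 and 15.9 CPM. Those labelled siRNA A held 22.1, 18.8 and 22.3 CPM, and those labelled siRNA B held 21.8, 23.6 and 19.5 CPM. Both siRNA groups lay above the control group and overlapped each other. The TMM-scaled means were 13.1 ± 2.84, 23.7 ± 1.40 and 22.0 ± 2.61 CPM (SD, n = 3). KRT80 rose 1.78-fold with siRNA A (log2 0.83, SE 0.15, adjusted p = 8.96e-04) and 1.65-fold with siRNA B (log2 0.72, adjusted p = 0.00394). The difference between the siRNAs, 0.11 with a 95% interval of -0.22 to 0.45 (adjusted p = 0.600), did not pass, and under library totals alone its sign turned (-0.038). KRT80 was the only member for which this difference missed the threshold.

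KRT23, the lowest of the set by CPM with 57 to 251 reads per library, moved the other way. Control libraries held 9.48, 13.0 and 9.98 CPM. The libraries labelled siRNA A held 8.08, 6.49 and 8.13 CPM, and those labelled siRNA B held 6.34, 3.49 and 4.25 CPM. In these deposited values no siRNA library reached the control range, but after TMM scaling the siRNA A libraries (7.63 to 9.04 CPM) overlapped the controls (8.33 to 10.9 CPM). The TMM-scaled means were 9.43 ± 1.33, 8.52 ± 0.773 and 4.72 ± 1.27 CPM (SD, n = 3). KRT23 fell with siRNA B by 0.88 on the log2 scale (1.84-fold lower, SE 0.17, adjusted p = 0.00193). With siRNA A the log2 difference was -0.13 (95% interval -0.49 to 0.24, adjusted p = 0.548), or -0.46 (adjusted p = 0.0532) under library totals alone. The siRNAs differed by 0.76 (log2, adjusted p = 0.00452).

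**Figure D3:**
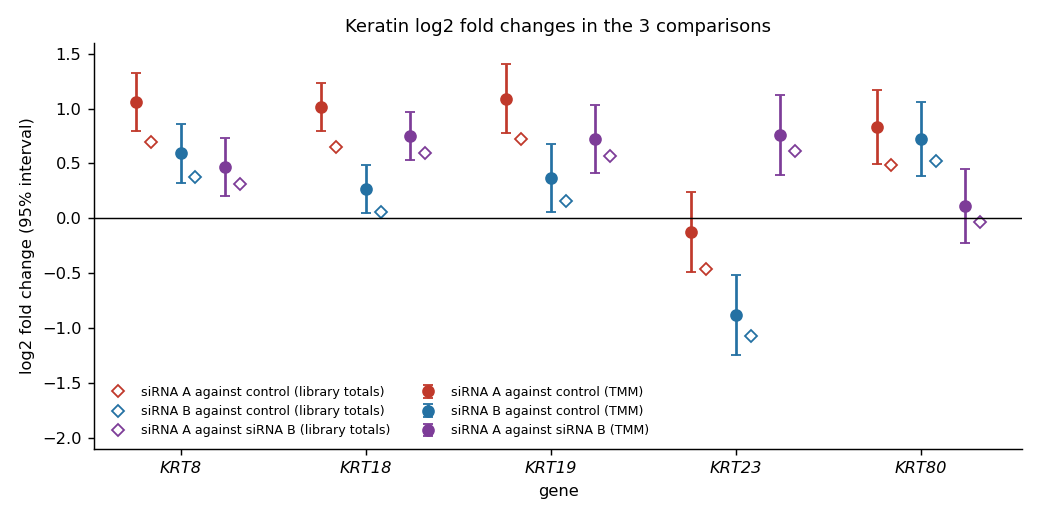
Log2 fold change (y axis) of each keratin (x axis) in the 3 comparisons, as filled circles with 95% intervals after TMM scaling and as open diamonds under library totals alone. The siRNA A values of KRT8, KRT18, KRT19 and KRT80 lie between 0.83 and 1.09 after TMM scaling, KRT23 with siRNA B lies at -0.88, and the diamonds sit lower throughout.

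These counts stand against a wide response of all genes. With siRNA A, 51.4% of the genes tested passed, 23.9% higher and 27.6% lower, against 4 keratins higher, 0 lower and 1 not called. With siRNA B, 34% passed, 15.6% higher and 18.3% lower, against 2 keratins higher, 1 lower and 2 not called. Between siRNA A and siRNA B 37.1% passed, 17.6% higher with siRNA A and 19.5% lower, against 4 keratins higher and 1 not called. The median log2 fold change of the 5 keratins was 1.01 with siRNA A, 0.37 with siRNA B and 0.72 between them, and that of all tested genes was -0.02, 0.0043 and -0.01. Scaling by library totals alone moved those 3 medians of all genes to -0.34, -0.18 and -0.15, and split the calls of all genes into 1257 higher and 6532 lower with siRNA A and 958 higher and 4127 lower with siRNA B. In all 16 alternative settings 4 keratins were higher with siRNA A, and with siRNA B 2 to 4 were higher and 1 was lower. The 2 comparisons against control share the same 3 control libraries.

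Levels can be set between genes only per length. Divided by the canonical transcript, control libraries held 441 ± 15.1 TMM-scaled CPM per kilobase of KRT8, 328 ± 12.3 of KRT19, 259 ± 15.2 of KRT18, 4.27 ± 0.600 of KRT23 and 3.38 ± 0.734 of KRT80 (SD, n = 3). The last pair did not differ beyond its spread. With siRNA A the order of the upper keratins was the same, at 927, 709 and 526 CPM per kilobase for KRT8, KRT19 and KRT18, but KRT80 at 6.13 now stood above KRT23 at 3.86. With siRNA B the values were 665, 426, 312, 5.67 and 2.13 for KRT8, KRT19, KRT18, KRT80 and KRT23. The order of the upper 3 depends on the length used. Per kilobase of all annotated exons, control levels were 195 for KRT19, 119 for KRT18 and 114 for KRT8, since KRT8 has the longest set of alternative exons. The share of each transcript that cannot be placed uniquely also differs, so the ranking of KRT8 and KRT18 beside KRT19 is not settled by these data.

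Ratios within a library do not depend on the scaling between libraries. KRT8 and KRT18 reads stood at 2.06, 2.16 and 2.24 to 1 in the control libraries and at 2.20, 2.37 and 2.09 to 1 in those labelled siRNA A. In those labelled siRNA B the ratio was 2.61, 2.77 and 2.70, above every other library. The group means were 2.15 ± 0.0889, 2.22 ± 0.141 and 2.69 ± 0.0809 (SD, n = 3). The siRNA B ratio was 1.25-fold that of control in a two-sided exact permutation test with p = 0.1, the smallest p that 3 against 3 libraries allow, and the siRNA A ratio gave p = 0.6. The test between the siRNAs also gave an exact p = 0.1.

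The summed type II reads (KRT8 and KRT80) against the summed type I reads (KRT18, KRT19 and KRT23) showed the same split. KRT8 and KRT18 enter both ratios, and KRT80 made up at most 1.08% of the keratin reads, so this ratio is not a separate result. The ratio was 0.947, 0.960 and 0.978 in control libraries and 0.973, 0.961 and 0.965 in those labelled siRNA A, so both groups sat just under 1. In those labelled siRNA B it was 1.21, 1.12 and 1.17. The means were 0.962 ± 0.0157, 0.966 ± 0.00653 and 1.17 ± 0.0468 (SD, n = 3), with an exact permutation p of 0.8 for control against siRNA A and of 0.1 for each of the other two pairs of groups. KRT8 alone made up 47.8% to 48.6% of the reads of the 5 keratins in control, 48.3% to 48.6% with siRNA A and 51.7% to 53.7% with siRNA B. The 5 together took 1819 to 1918 CPM in control, 2651 to 3305 CPM with siRNA A and 2196 to 2232 CPM with siRNA B. KRT19 against KRT18 varied more within groups than between them, at 1.19 to 1.30 in control, 1.19 to 1.49 with siRNA A and 1.18 to 1.52 with siRNA B.

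**Figure D4:**
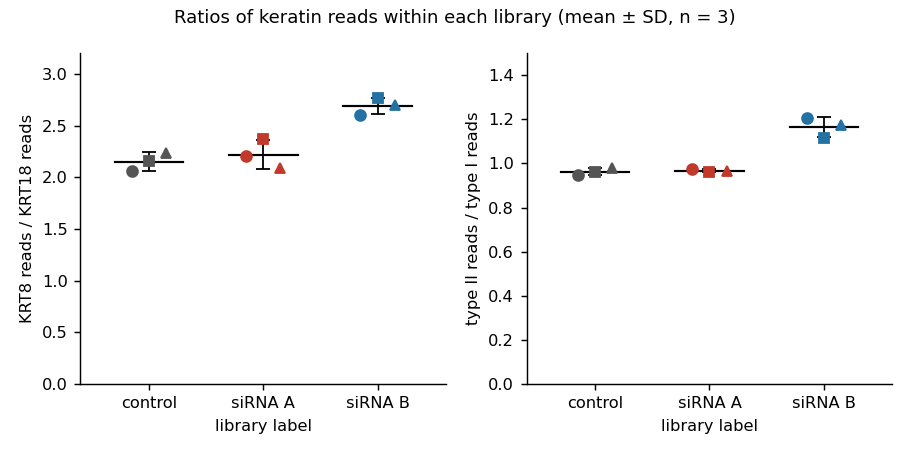
Ratio of KRT8 to KRT18 reads (left) and of type II to type I keratin reads (right) in each library, by label (x axis), with linear y axes from 0, points for libraries, lines for means and bars for the SD of 3. The libraries labelled siRNA B lie above all others in both panels, at means of 2.69 and 1.17.

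Other keratins were mostly missing from the table. Of the 50 other keratin genes in the annotation, 7 had a row and 6 reached the filter. With siRNA A 5 of the 6 passed higher and 0 lower, where 23.9% of all genes were higher, and with siRNA B 0 passed, where 34% of all genes were called. Under library totals alone 4 were higher with siRNA A and 1 was lower with siRNA B. The medians of all genes were then -0.34 and -0.18 (log2), and most of their calls were lower. However, KRT34 and KRT32 reached 1 CPM in the siRNA A libraries alone and so had to differ, which leaves 3 of 4. KRT7, the type II keratin of glandular ducts, measured 17.3, 18.6 and 19.0 CPM in control, 37.3, 28.7 and 29.9 CPM with siRNA A and 15.5, 18.2 and 14.8 CPM with siRNA B. Its log2 fold change with siRNA A was 1.12 (adjusted p = 5.53e-05), the siRNA B value was 0.024 (adjusted p = 0.908), and the siRNAs differed by 1.09 (adjusted p = 1.27e-04). KRT7 overlaps KRT7-AS and other keratin loci on the annotation.

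KRT15, a type I keratin of basal cells that neighbours KRT19, measured 21.6 to 24.1 CPM in control, 28.1 to 30.4 CPM with siRNA A and 14.9 to 19.1 CPM with siRNA B, without overlap. It rose by 0.69 with siRNA A (log2, adjusted p = 2.68e-04) and stood at -0.22 with siRNA B (adjusted p = 0.121), where library totals alone brought it past the threshold as lower (-0.43, adjusted p = 0.0155). KRT10, the type I keratin of the upper epidermis, rose by 0.68 (adjusted p = 0.00127) with siRNA A and stood at 0.16 (adjusted p = 0.393) with siRNA B. Under library totals alone it no longer passed with siRNA A (0.33, adjusted p = 0.0618), and it overlaps KRT10-AS1. KRT34, a hair keratin with near relatives in the same cluster, had 5, 2 and 3 reads in the control libraries, 55, 100 and 40 with siRNA A and 4, 2 and 5 with siRNA B. The fitted difference with siRNA A (log2 2.05) depends on the pseudocount at such counts and was 3.99 with a pseudocount of 0.1 CPM. Since KRT34 passed the filter only through the siRNA A libraries, its p is not given. KRT20, a keratin of mature gut cells, stayed under the filter with 1 to 17 reads per library.

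**Figure D5:**
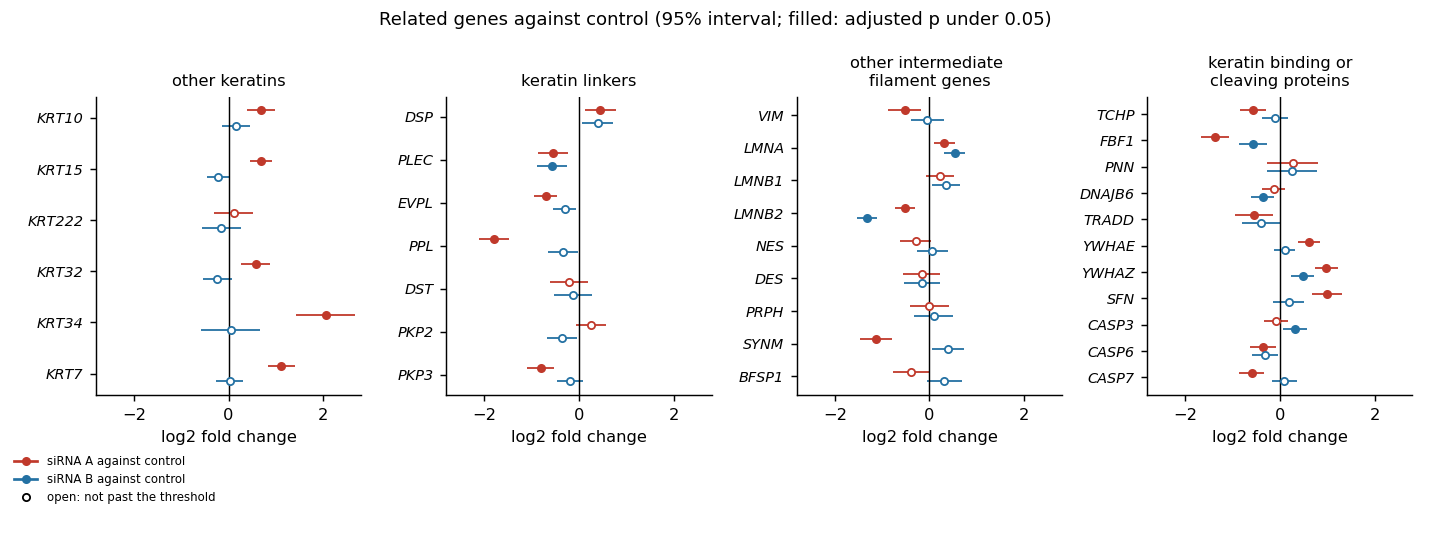
Log2 fold change with 95% interval (x axis) of other keratins, keratin linkers, other intermediate filament genes and keratin binding or cleaving proteins (y axis), for siRNA A and siRNA B against the same controls, with filled points where the adjusted p was under 0.05. PPL at -1.79 and KRT34 at 2.05, both with siRNA A, are the outermost values, and KRT34 and KRT32 passed the filter only through the siRNA A libraries.

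The linkers anchor keratin filaments to junctions. Of 9 linkers listed, 7 were tested, and with siRNA A 1 rose and 4 fell, with a median log2 fold change of -0.55, while with siRNA B 0 rose and 1 fell (median -0.30). Over all genes 23.9% rose and 27.6% fell with siRNA A, and 15.6% rose and 18.3% fell with siRNA B. PPL, the cross-linker periplakin, measured 36.1, 46.0 and 40.7 CPM in control libraries, 7.42, 10.3 and 8.04 CPM with siRNA A and 28.7, 28.9 and 25.0 CPM with siRNA B. It fell by 1.79 on the log2 scale with siRNA A (adjusted p = 5.07e-06) and stood at -0.35 with siRNA B (adjusted p = 0.0847), and the siRNAs differed by -1.44 (adjusted p = 4.37e-05). PKP3, a desmosomal plakophilin, fell by 0.81 (adjusted p = 3.36e-04) and EVPL, the partner of periplakin, fell by 0.70 (adjusted p = 3.12e-04) with siRNA A. PLEC, the broad cytolinker plectin, fell with both, by 0.55 (adjusted p = 0.00812) and 0.57 (adjusted p = 0.0104). The 1 linker that rose, named after its value was seen, was DSP, the main desmosomal keratin anchor, at 0.45 (log2, adjusted p = 0.0258) with siRNA A. Under library totals alone it was not called and 5 linkers were lower with each siRNA. The medians of all genes were then -0.34 with siRNA A and -0.18 with siRNA B (log2), and most of their calls were lower.

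Intermediate filament genes other than keratins encode lamins and the filaments of other tissues. Of 15 listed 9 were tested, with 1 higher and 3 lower with siRNA A and 1 higher and 1 lower with siRNA B, beside 51.4% and 34% of all genes called, and with medians of -0.29 and 0.086 on the log2 scale. Under library totals alone 0 were higher and 5 lower with siRNA A. The median of all genes was then -0.34 (log2), and most of their calls were lower. LMNB2, a nuclear lamin, measured 414 to 503 CPM in control, 234 to 257 CPM with siRNA A and 144 to 172 CPM with siRNA B. It fell by 0.52 (log2, adjusted p = 9.95e-04) and 1.32 (adjusted p = 4.17e-06), and the siRNAs differed by 0.80 (adjusted p = 1.17e-04). SYNM, the large filament protein synemin, measured 4.31 to 7.46 CPM in control, 1.41 to 1.66 CPM with siRNA A, close to the filter, and 6.53 to 6.92 CPM with siRNA B. It fell by 1.14 with siRNA A (adjusted p = 1.35e-04) and stood at 0.39 with siRNA B (adjusted p = 0.0765), a difference of -1.52 (adjusted p = 5.03e-05) between the siRNAs. LMNA, which encodes lamins A and C, rose by 0.53 with siRNA B (adjusted p = 0.00201) and by 0.31 with siRNA A (adjusted p = 0.0214), where library totals alone gave -0.054. VIM, the mesenchymal filament gene, was close to the filter, at 3.09 to 4.66 CPM in control, 1.35 to 2.14 CPM with siRNA A and 2.53 to 3.43 CPM with siRNA B, and its fall of 0.52 with siRNA A (log2, adjusted p = 0.0161) did not pass once control replicate 2 (-0.43, adjusted p = 0.0693) or siRNA A replicate 2 (-0.43, adjusted p = 0.0604) was left out.

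All 11 listed genes for proteins that bind or cleave keratins were tested, with 3 higher and 5 lower with siRNA A (all genes 23.9% and 27.6%) and 2 higher and 2 lower with siRNA B (all genes 15.6% and 18.3%). Their median log2 fold changes were -0.13 and 0.090. Under library totals alone 2 were higher and 7 lower with siRNA A, and 0 higher and 4 lower with siRNA B. The medians of all genes were then -0.34 and -0.18 (log2), and most of their calls were lower. The 3 that rose with siRNA A were genes of the 14-3-3 family, which binds phosphorylated KRT18. SFN (14-3-3 sigma) rose by 0.99 (log2, adjusted p = 2.28e-04), YWHAZ (zeta) by 0.98 (adjusted p = 3.18e-05) and YWHAE (epsilon) by 0.62 (adjusted p = 4.78e-04). With siRNA B, YWHAZ rose by 0.48 (adjusted p = 0.00546), while SFN at 0.18 (adjusted p = 0.368) and YWHAE at 0.10 (adjusted p = 0.499) did not pass. Under library totals alone YWHAE with siRNA A (0.25, adjusted p = 0.0535) and YWHAZ with siRNA B (0.27, adjusted p = 0.0784) were not called. FBF1, which binds keratins at the apical junction and the centriole, fell by 1.38 (adjusted p = 1.72e-05) with siRNA A and by 0.57 (adjusted p = 0.00744) with siRNA B. Its level was low, at 5.11 to 5.95 CPM in control, 0.931 to 1.35 CPM with siRNA A, around the filter, and 2.63 to 3.10 CPM with siRNA B.

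Of the 10 colon epithelial markers tested, 2 rose and 3 fell with siRNA A (23.9% and 27.6% of all genes did) and 3 rose and 1 fell with siRNA B (15.6% and 18.3% of all genes), with median log2 fold changes of -0.035 and -0.15. The number called was close to the share over all genes. Under library totals alone 2 were higher and 6 lower with siRNA A, and 1 higher and 6 lower with siRNA B. That setting moved the medians of all genes to -0.34 and -0.18 (log2), and most of their calls were lower. ELF3, an epithelial transcription factor, rose by 1.43 (log2, adjusted p = 0.00117) with siRNA A and by 1.40 (adjusted p = 0.00244) with siRNA B. CLDN7, a tight junction gene, rose by 1.05 (adjusted p = 1.66e-04) and 0.63 (adjusted p = 0.00722), the latter not called under library totals alone (0.42, adjusted p = 0.0593). EPCAM, the epithelial adhesion molecule, fell by 0.55 with siRNA A (adjusted p = 0.00121) and stood at -0.13 with siRNA B (adjusted p = 0.387). CDX2, the intestinal identity factor, fell by 0.52 (adjusted p = 0.00413) and 0.43 (adjusted p = 0.0182), and the latter call did not hold when control replicate 1 (adjusted p = 0.0503), control replicate 3 (adjusted p = 0.0541) or siRNA B replicate 3 (adjusted p = 0.0725) was left out.

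Markers of other cell types were at or near 0 with the exception of COL1A1, a fibrillar collagen gene. Of the 5 fibroblast genes 3 had a row. LUM was 0 in every library and COL3A1 held at most 3 reads, while COL1A1 measured 18.3 to 19.5 CPM in control. COL1A1 alone was tested, falling by 0.46 (log2, adjusted p = 0.00878) and 0.79 (adjusted p = 6.46e-04). Their summed level was 18.3 to 19.5 CPM in control, 9.44 to 12.4 CPM with siRNA A and 8.55 to 9.42 CPM with siRNA B. Of the 3 leukocyte genes CD68 alone had a row, at 0.579 to 1.18 CPM. It passed higher with siRNA A (log2 0.43, adjusted p = 0.0295) and not with siRNA B (0.19, adjusted p = 0.355), but DESeq2 (adjusted p = 0.0571) and scaling by totals (adjusted p = 0.195) did not call it with siRNA A, nor did the fits leaving out control replicate 2, control replicate 3 or any siRNA A library (adjusted p of 0.0542 to 0.121). The 2 endothelial genes had no row. The part of these markers in the keratin values was not tested.

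The genes whose pattern over the 9 libraries was most like each keratin were found by Pearson's r of log2(TMM-scaled CPM + 1) among 9099 genes with a mean of at least 10 CPM. The points share libraries, scaling and group means, so r is given as a description of likeness and with no p. For KRT8 they were PDLIM1 (r = 0.993), TKT (0.993) and RPL4 (0.991), and for KRT18 they were BRIX1 (0.995), DHX34 (0.994) and SF3B4 (0.993). KRT19 was most like GRINA (0.988), ZNF628 (0.985) and PKM (0.985). KRT23 stood beside ALG12 (0.966), NDUFA9 (0.963) and SNAP23 (0.963), and KRT80 beside KRR1 (0.975), THUMPD3-AS1 (0.970, or 0.866 under library totals alone) and FOSL1 (0.968). No member appeared among the 3 genes most like another member, and KRT23, with a mean under 10 CPM, could not. Between members, r was 0.966 for KRT18 and KRT19, 0.960 for KRT8 and KRT19 and 0.940 for KRT8 and KRT18. With those 3, KRT80 ran from 0.715 to 0.838, and KRT23 ran from -0.513 to 0.0990 with the other members. Under library totals alone r among KRT8, KRT18 and KRT19 ran from 0.867 to 0.925. KRT80 with those 3 then ran from 0.403 to 0.644, and KRT23 with the other members from -0.725 to 0.0352.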

How the data were processed

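Poly(A) RNA of 9 HCT116 libraries was read as single ends of 50 bases. Per the submitters' processing notes, TopHat2, HTSeq and GRCh37 (hg19) were used; strand and multi-mapping settings were not given in the sources used here. The authors deposited 1 table of CPM values, the reads of a gene scaled to a common library total, with no further scaling. With a tolerance of 0.01 reads, 100% of values were whole reads, so counts and library totals were recovered. Of 15354 identifiers, 14871 matched the annotation and 483 did not.

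TMM factors came from edgeR 4.0.16. They ran from 1.10 to 1.19 in control, 0.850 to 0.914 with siRNA A and 0.948 to 1.04 with siRNA B. Fold changes against control are therefore larger on the TMM scale than in the deposited CPM for genes that rose, most with siRNA A. The main test was limma 3.58.1 (trend, R 4.3.3, two-sided) on log2(TMM-scaled CPM + 1) over all 9 libraries, for the 13893 genes (90.5% of rows) with at least 1 CPM in at least 3 libraries, with Benjamini-Hochberg adjustment over all of them and a threshold of 0.05. A pseudocount of 1 CPM understates changes of low genes. As an alternative, edgeR's quasi-likelihood test on the recovered reads called 7160, 4780 and 5105 genes (control against siRNA A, control against siRNA B, and between the siRNAs), beside 7145, 4719 and 5155 in limma. The other alternatives were DESeq2 1.42.0, library totals alone, a pseudocount of 0.1 CPM, no filter, only the 2 groups compared, a replicate block and each library left out. The code was tested on simulated data. Within-library ratios were compared by exact permutation tests.

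Each siRNA A library matched the control library of its own replicate number best, though weakly for number 3. Their deviations from the group means correlated at r = 0.65, 0.41 and 0.13 for numbers 1, 2 and 3. This possible pairing was read from the data alone, since the labels name no shared batch, and the main fit had no replicate block. The replicate block changed no keratin call for siRNA A (KRT8 with the block: log2 1.06, adjusted p = 2.27e-05).

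The members and gene lists were chosen with earlier results of these data known. Named genes were the 5 keratins, SNHG5, up to 4 called genes of each list with the largest change in either siRNA against control, any list gene called in opposite directions, and the 3 genes most like each member. Intervals cover the spread between libraries, and fold changes of single genes rest on 3 libraries per group.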

Additional observations from a re-analysis of the deposited data

Results flagged for a closer look

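For 4 keratins the change with siRNA A differed from the change with siRNA B by the direct test between the siRNA groups, which 37.1% of all tested genes passed. The difference, siRNA A minus siRNA B on the log2 scale, was 0.47 for KRT8 (adjusted p = 0.0109), 0.75 for KRT18 (adjusted p = 2.38e-04), 0.72 for KRT19 (adjusted p = 0.00246) and 0.76 for KRT23 (adjusted p = 0.00452), all from limma. For KRT8, KRT18 and KRT19 all 3 libraries labelled siRNA A lay above all 3 labelled siRNA B, and the same held for KRT23. The share of all tested genes that separate in this way was not counted, so the separation is given as a description. These 4 calls passed in all 16 alternative settings. No group had enough libraries for a test of single outlying samples.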

How the results depend on the processing

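The 15 keratin results kept their direction in all 16 alternatives but 1, KRT80 between the siRNAs, which turned to -0.038 under library totals alone, and no keratin call was lost. KRT18 with siRNA B passed in DESeq2 (0.28), and its values ran from 0.22 to 0.31 as each library was left out. KRT19 with siRNA B passed in DESeq2 (0.39), in the fit to the 2 groups alone (0.37) and with a replicate block (0.37, adjusted p = 0.0392), and ran from 0.29 to 0.45 as each library was left out. Same-numbered siRNA B and control libraries did not deviate together throughout (r = 0.17, 0.44 and -0.39), nor did those of siRNA A and siRNA B (0.20, 0.44 and 0.019). Replicate 2 matched its own number best in both comparisons, and replicate 3 matched another number best in both. For these comparisons the block therefore rests in part on the number alone. It raised the calls from 4719 to 5791 and from 5155 to 6229. The block changed no other keratin call.

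The ratio of KRT8 to KRT18 reads for siRNA A against control ran from -0.00394 to 0.087 (log2) as each library was left out, and that of type II to type I from -0.00440 to 0.019, with -0.000797 per kilobase of exon. Under library totals alone the genes called were 1257 higher and 6532 lower (siRNA A against control), 958 and 4127 (siRNA B against control) and 1415 higher between the siRNAs. Leaving out each library gave 1395 (without control replicate 2) to 2293 higher genes for siRNA B. With siRNA B, library totals alone turned KRT7 to -0.18, KRT10 to -0.046, SFN to -0.029 and YWHAE to -0.11, and with siRNA A LMNA to -0.054. As each library was left out, KRT7 with siRNA B ran from -0.086 to 0.078 and VIM from -0.14 to 0.051. The cause of these shifts was not tested. After seeing the data, likeness was also computed under library totals and a pseudocount of 0.1 CPM. Depth limits KRT23, KRT80 and the low keratins most, and the 3 libraries per group allow no exact p under 0.1 for a single value.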
